A study of Mus musculus and Acomys cahirinus with 16 samples.

Results

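The gasdermin genes of skin were followed in the laboratory mouse and in the African spiny mouse (Acomys cahirinus), with and without DMBA/TPA. The 9 members were chosen by symbol: Gsdma, Gsdma2, Gsdma3, Gsdmc, Gsdmc2, Gsdmc3, Gsdmc4, Gsdmd and Gsdme. They make up 9 of 56980 rows of the mouse count table and 9 of 19818 rows of the spiny mouse table. The 16 samples fell into 4 groups of 4: untreated mouse skin, DMBA/TPA-treated mouse skin, untreated spiny mouse skin and DMBA/TPA-treated spiny mouse skin. DMBA is a DNA-damaging carcinogen. The phorbol ester TPA is applied after it to promote skin tumours. Strain, age, sex, dose and length of treatment are not given in the sources used here. The labels do not say that replicates came from separate animals, so the p-values measure only the spread between these samples, which may be technical. Series text that describes irradiated fibroblasts went against the skin labels, and the labels were followed. In the count headers the treated samples carry the code DT and the other columns the code AC, which does not spell out untreated. The AC columns were given to the untreated samples by species letter and replicate number, as the only samples left.

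Total counts per sample ran from 19608787 to 30561256, and a level of 3 counts corresponded to between 0.0982 and 0.153 CPM, the unit of level used here (counts over a TMM-scaled library size). Such floors cover counting error only. As a check of the skin label, suprabasal epidermal markers summed to 5745 CPM or more in every sample. Untreated mouse replicate 2 stood apart from the other 3 untreated mouse samples. Its inner root sheath markers, genes of growing hair follicles, summed to 2436 CPM, against 9.6 to 38.5 CPM in the others, and its suprabasal sum was the lowest at 5745 CPM. Values without that library are given where they bear on a result. Untreated spiny mouse samples were not alike either. Their inner root sheath markers summed to 11031.5 and 11966 CPM in replicates 1 and 2, and to 1163 and 3482 CPM in replicates 3 and 4.

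Gasdermins are pore-forming proteins. A protease cuts the linker between the toxic amino-terminal domain and the inhibitory carboxy-terminal domain, and the freed amino-terminal parts assemble into membrane pores that release interleukin-1 family cytokines and can end in pyroptosis, a lytic form of cell death. Gsdmd is the target of the inflammatory caspases, and Gsdme is cut by granzyme B among other proteases. Gsdma is the gasdermin best known from the epidermis, Gsdma3 mutations cause hair loss in mice, and the Gsdmc genes are known from epithelia. Gene duplication has given the mouse several Gsdma and several Gsdmc copies where humans have a single copy of each. All of these steps act on protein, and only transcript levels were measured here.

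The mouse copies lie in tandem. In GRCm39, Gsdma3 (chr11:98517186-98529052), Gsdma2 (chr11:98537585-98548790) and Gsdma (chr11:98555177-98568534) follow each other on the plus strand. Gsdmc (chr15:63647817-63680608), Gsdmc2 (chr15:63696195-63717026), Gsdmc3 (chr15:63729573-63750407) and Gsdmc4 (chr15:63763113-63784146) follow each other on the minus strand. Gsdmd (chr15:75734176-75739257, plus strand) and Gsdme (chr6:50165868-50240842, minus strand) are single genes. Over the coding sequence, Gsdma was 91.4% identical to Gsdma2 and 89.8% to Gsdma3. Within the other cluster Gsdmc2 and Gsdmc3 were 97.1% identical, each was 93.8% identical to Gsdmc4, and Gsdmc was 87.0% identical to Gsdmc2. Between the subfamilies, Gsdmd and Gsdme the identity was between 61.4% and 65.5%.

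Counting kept only fragments that mapped to a single place, so the likeness of the copies bears on what each row can hold. The first 90 coding bases show it, with capitals for bases that differ from Gsdma in its 2 relatives and from Gsdmc in its 3 relatives:
Gsdma: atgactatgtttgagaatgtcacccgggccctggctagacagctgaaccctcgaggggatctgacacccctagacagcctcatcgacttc
Gsdma2: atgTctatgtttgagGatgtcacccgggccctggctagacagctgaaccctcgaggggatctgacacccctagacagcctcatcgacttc
Gsdma3: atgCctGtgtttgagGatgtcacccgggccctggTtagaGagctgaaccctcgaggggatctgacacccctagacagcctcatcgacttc
Gsdmc: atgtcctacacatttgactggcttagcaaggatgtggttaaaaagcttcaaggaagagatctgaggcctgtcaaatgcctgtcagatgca
Gsdmc2: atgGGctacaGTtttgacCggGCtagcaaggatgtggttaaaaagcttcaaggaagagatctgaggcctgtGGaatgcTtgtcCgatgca
Gsdmc3: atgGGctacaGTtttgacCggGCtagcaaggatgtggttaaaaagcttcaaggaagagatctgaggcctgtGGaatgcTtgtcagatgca
Gsdmc4: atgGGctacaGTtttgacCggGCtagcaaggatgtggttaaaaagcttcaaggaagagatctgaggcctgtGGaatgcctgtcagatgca

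In this stretch Gsdma2 differed from Gsdma at 2 positions (A4T and A16G, counted from 1 at the start codon), and Gsdma3 differed at 5. Gsdmc2, Gsdmc3 and Gsdmc4 differed from Gsdmc at 11, 10 and 9 positions, and Gsdmc3 and Gsdmc2 are told apart there by A84C alone, which Gsdmc2 carries against Gsdmc. Windows of 75 exonic bases were searched for exact copies elsewhere in GRCm39. A copy was found for 45.9% of the windows of Gsdmc2, 36.1% of Gsdmc3, 22.6% of Gsdmc4 and 15.5% of Gsdmc. The share was 4.38% for Gsdma, 5.16% for Gsdma2 and 0.472% for Gsdma3, 0.212% for Gsdme, and no window of Gsdmd had one. The read length is not given in the sources used here, so these shares describe the sequence and not the fragments lost.

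In the spiny mouse table the copies share their exons. The rows Gsdma, Gsdma2 and Gsdma3 cover a single locus of the AcoCah2 assembly (scaffold_9:22626514-22641816 for Gsdma, minus strand), and the 4 Gsdmc rows cover another (scaffold_6:91621134-91639992 for Gsdmc2, plus strand). A fragment lying wholly in exons of several rows is counted for none of them under the counting options in the file header. Of the exon bases of Gsdma, 1405 of 3119 (45.0%) belonged to no other row, in a block at its 3′ end. Gsdma2 had 102 such bases (6.33%), Gsdma3 had 99 (5.9%) and Gsdmc2 had 715 (26.8%). Gsdmc, Gsdmc3 and Gsdmc4 had none. Their counts of 0 in all 8 spiny mouse samples therefore say nothing about expression of the locus, and summing the rows does not bring back fragments of the shared exons. Gsdmd and Gsdme shared no exon base in spiny mouse, nor did any of the 9 mouse rows. Rows with no base of their own made up 2.46% of the spiny mouse table and 2.44% of the mouse table.

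**Figure D1:**
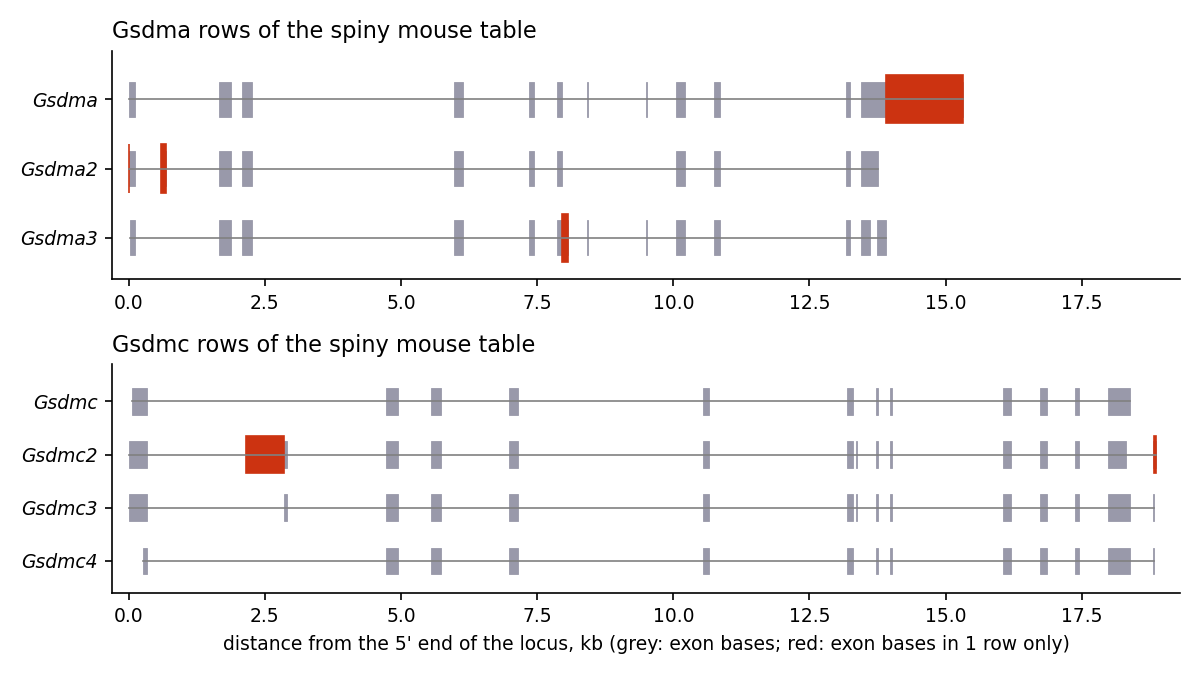
Exons of the Gsdma and Gsdmc rows in the spiny mouse table, as distance in kb from the 5′ end of the locus, with exon bases in grey and bases found in 1 row only in red. Gsdma keeps a red block of 1405 bases at its 3′ end, Gsdma2 and Gsdma3 keep about 100 bases each, and Gsdmc, Gsdmc3 and Gsdmc4 have no red block.

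In mouse skin, Gsdma and Gsdmc were higher after DMBA/TPA and Gsdmd and Gsdme were lower. Of the 9 members, 7 passed the filter on low counts and 6 of these were called (edgeR quasi-likelihood test, Benjamini-Hochberg adjusted p under 0.05): 3 higher and 3 lower. In the same comparison 61.2% of 19740 tested genes were called, 25.9% higher and 35.3% lower, so a called member is no exception among genes here. The same 6 had groups that did not overlap, as had 58.6% of tested genes. The samples are bulk tissue, in which fewer cells of a type and less RNA per cell cannot be told apart. No call on a tested member changed under another scaling or without any 1 library, and the exception under the filter is given with Gsdma3.

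Gsdma was the most abundant gasdermin of mouse skin. Untreated replicates 1 to 4 held 86.2, 48.9, 75.7 and 96.3 CPM, and treated replicates 400.2, 365, 365 and 386 CPM. Every treated sample lay above every untreated one, and the lowest untreated value was that of replicate 2. The mean went from 76.8 ± 20.4 to 379.3 ± 17.1 CPM (SD, n = 4), a log2 fold change of 2.30 (SE 0.202, adjusted p = 2.77e-05 in edgeR), or 4.94-fold. Without untreated replicate 2 the change was 2.23 (SE 0.106).

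Its neighbours did not follow it. Gsdma2 held 3.50, 1.32, 2.86 and 3.64 CPM untreated and 1.89, 2.55, 3.16 and 2.86 CPM treated, and the groups overlapped. Its log2 fold change of -0.11 (SE 0.323, adjusted p = 0.784 in edgeR) was below its error. Gsdma3, the member tied to hair loss by its mutations, held 14.4, 11.8, 12.0 and 13.2 CPM untreated and 10.0, 9.36, 8.22 and 8.84 CPM treated. All treated samples were below all untreated ones, by a log2 fold change of -0.50 (SE 0.122, adjusted p = 0.00669 in edgeR). With no filter on low counts that call was lost (-0.35, adjusted p = 0.079). Summed over the Gsdma copies, the log2 fold change was 2.08 (SE 0.186, adjusted p = 3.12e-05 in edgeR), and Gsdma alone supplied 36389 of the 37515 counts of the treated samples.

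Gsdmc showed the largest fitted change of the family. Untreated mouse samples held 7.21, 0.614, 5.35 and 5.74 CPM, with replicate 2 far below the others, and treated samples held 153.1, 130.9, 101.6 and 74.9 CPM. The groups were well apart, and the treated samples spread over a wider range than those of Gsdma. The mean went from 4.73 ± 2.86 to 115.1 ± 34.1 CPM (SD, n = 4). The log2 fold change was 4.60 (SE 0.574, adjusted p = 0.000178 in edgeR). It was 4.33 (SE 0.251) without untreated replicate 2, still the largest of the 7 tested members.

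The relatives of Gsdmc were scarce. Gsdmc2 held 0.814, 0.132, 0.659 and 0.729 CPM untreated and 6.04, 6.15, 4.58 and 2.49 CPM treated. The groups did not overlap, with a log2 fold change of 3.02 (SE 0.475, adjusted p = 0.000632 in edgeR). Gsdmc2 is the copy with the most windows shared with other places, so its row may hold only part of its fragments. Gsdmc3 had 0, 0, 0 and 1 counts untreated and 2, 4, 2 and 4 counts treated, and Gsdmc4 had 2, 1, 0 and 2 untreated and 2, 2, 2 and 1 treated. Both failed the filter and were not tested. With no filter Gsdmc3 was called higher (log2 fold change 3.18, adjusted p = 0.0302 in edgeR), a value that depends on the prior count, and Gsdmc4 was not called (0.58, adjusted p = 0.625). For the sum of the 4 copies the log2 fold change was 4.48 (SE 0.562, adjusted p = 0.000185 in edgeR), with Gsdmc giving 10701 of 11168 treated counts.

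The single-copy members moved the other way in mouse. Gsdmd, the executor of inflammasome-driven pyroptosis, held 14.5, 10.8, 17.5 and 15.4 CPM untreated and 6.09, 8.57, 5.97 and 8.46 CPM treated. Treated samples were all lower, with means of 14.6 ± 2.77 and 7.27 ± 1.44 CPM (SD, n = 4) and a log2 fold change of -1.001 (SE 0.191, adjusted p = 0.00185 in edgeR). Gsdme, which granzyme B cuts, held 29.1, 30.4, 31.9 and 19.6 CPM untreated and 11.9, 13.2, 10.3 and 10.5 CPM treated. Again the groups did not overlap, and the log2 fold change was -1.27 (SE 0.167, adjusted p = 0.000232 in edgeR). Both falls were larger than the median change of all tested mouse genes, which was -0.15 under TMM and ran from -0.05 with DESeq2 size factors to -0.38 with library size alone.

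Levels can be set side by side only per length of exon. In untreated mouse skin Gsdma stood highest at 28.2 ± 7.48 CPM per kb (SD, n = 4), followed by Gsdma3 at 7.96 ± 0.732 and Gsdmd at 6.13 ± 1.17. The spread of these last 2 overlapped, though Gsdma3 lay above Gsdmd within each untreated sample, most narrowly in replicate 3 (7.42 against 7.35 CPM per kb). Gsdme at 2.18 ± 0.436 and Gsdmc at 1.97 ± 1.19 could not be told apart, and Gsdma2 at 0.918 ± 0.346 and Gsdmc2 at 0.252 ± 0.133 CPM per kb came below. In treated mouse skin the order was Gsdma at 139.2 ± 6.26, Gsdmc at 47.9 ± 14.2, Gsdma3 at 5.65 ± 0.476, Gsdmd at 3.06 ± 0.605 and Gsdmc2 at 2.08 ± 0.738 CPM per kb. Gsdmc thus moved from the middle of the family to second place. Gsdme and Gsdma2, at 0.901 ± 0.106 and 0.848 ± 0.177 CPM per kb, stood last among the tested members and within each other's spread. The Gsdme row spans 12742 exon bases, far more than the others, which lowers its value on this scale.

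**Figure D2:**
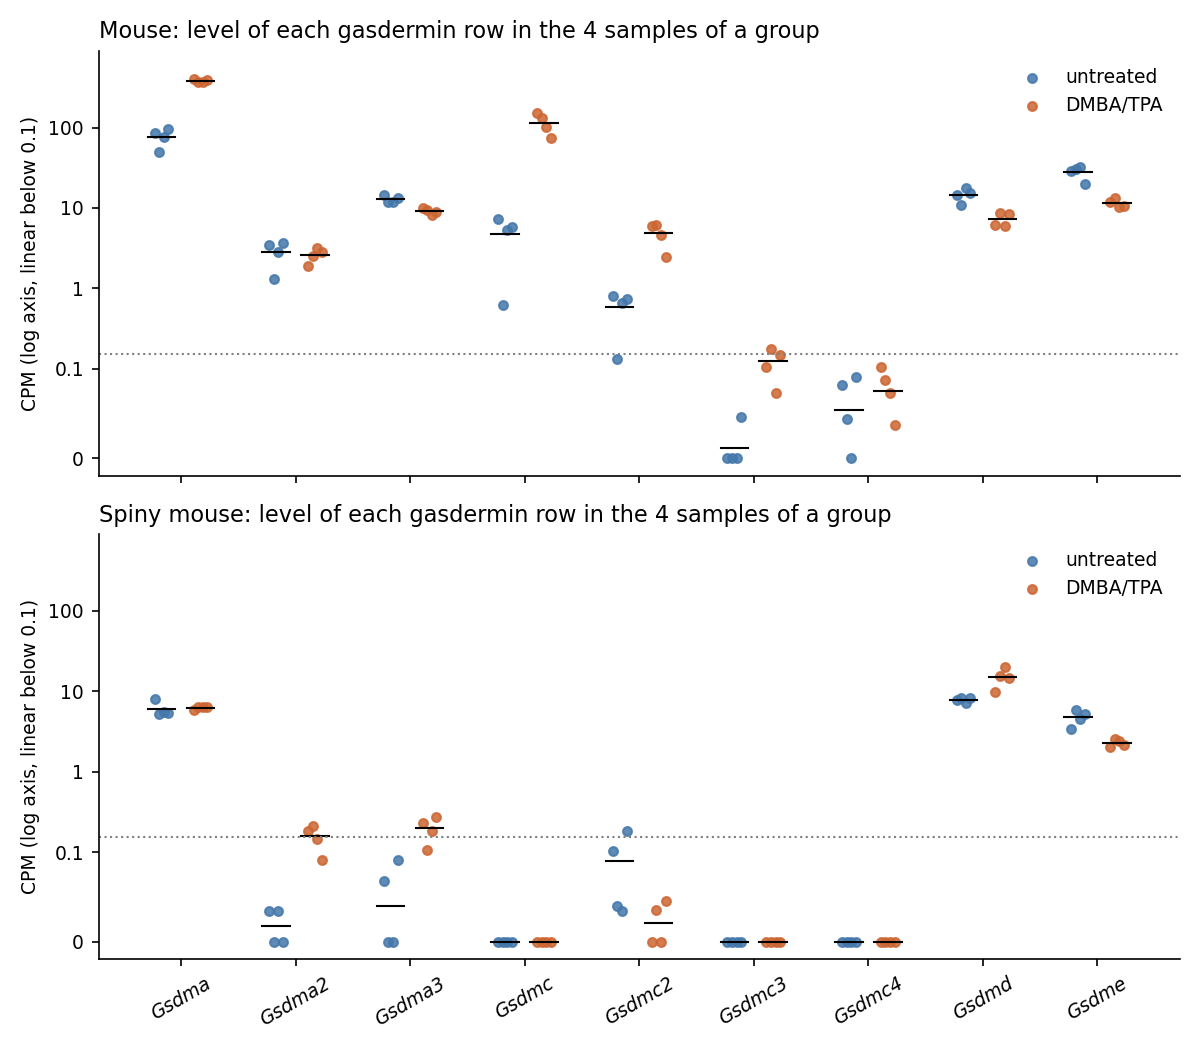
Level of each gasdermin row in CPM (log axis, linear below 0.1), with 1 point per sample, a bar at the mean of each group of 4 and a dotted line at the highest 3-count floor, 0.153 CPM. In mouse, treated samples lie above untreated ones for Gsdma, Gsdmc and Gsdmc2 and below for Gsdma3, Gsdmd and Gsdme, while in spiny mouse treated Gsdmd lies above and treated Gsdme below.

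In spiny mouse skin, Gsdmd was higher after DMBA/TPA, Gsdme was lower and the Gsdma row did not pass the test. Only these 3 members passed the filter, and 2 were called, 1 each way. Of 14833 genes tested in this species 55.1% were called, 28.2% higher and 26.9% lower, and 50.9% had groups that did not overlap, as the 2 called members had. Of the other 6 rows, Gsdmc, Gsdmc3 and Gsdmc4 had no base of their own, and Gsdma2, Gsdma3 and Gsdmc2 had 102, 99 and 715.

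Gsdmd held 7.72, 8.37, 7.08 and 8.23 CPM untreated and 9.92, 15.6, 20.0 and 14.9 CPM treated. The lowest treated sample, replicate 1, was still above every untreated one. Means were 7.85 ± 0.583 and 15.1 ± 4.14 CPM (SD, n = 4), with a log2 fold change of 0.95 (SE 0.187, adjusted p = 0.0024 in edgeR). Gsdme held 3.44, 5.87, 4.53 and 5.21 CPM untreated and 2.05, 2.57, 2.42 and 2.15 CPM treated. The groups did not overlap, and the log2 fold change was -1.04 (SE 0.187, adjusted p = 0.00139 in edgeR).

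The Gsdma row of spiny mouse, read from the block at the 3′ end, held 8.06, 5.20, 5.51 and 5.35 CPM untreated and 5.78, 6.40, 6.37 and 6.40 CPM treated. The groups overlapped, and the log2 fold change was 0.05 (SE 0.156, adjusted p = 0.819 in edgeR). The small segments of its neighbours at the same locus did not show that flat pattern. Gsdma2 had 1, 0, 1 and 0 counts untreated and 4, 6, 4 and 2 treated, and Gsdma3 had 2, 0, 0 and 2 untreated and 5, 3, 5 and 6 treated. Treated counts were above untreated ones for both, at 2 to 6 counts against a floor of 3, and neither row passed the filter. Without the filter both were called higher (log2 fold changes of 2.82 and 2.23, adjusted p = 0.00899 in edgeR and 0.0345), values that depend on the prior count at so few counts. The segments of Gsdma2 lie at the 5′ end of the locus and that of Gsdma3 in its middle. The sum of the 3 rows, 647 of whose 653 untreated counts were from Gsdma, changed by 0.11 (SE 0.156, adjusted p = 0.563 in edgeR).

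Of the Gsdmc locus of spiny mouse only the 715 bases of Gsdmc2 could be read. They held 3, 1, 1 and 4 counts untreated and 0, 1, 0 and 1 treated, in part below the floor of 3 counts, and were not tested. Per kb of exon, untreated spiny mouse skin held 4.01 ± 0.298 CPM of Gsdmd and 0.631 ± 0.138 CPM of Gsdme. Gsdma came to 4.29 ± 0.969 CPM per kb of the bases it shares with no other row, a level whose spread takes in that of Gsdmd. After treatment these values were 7.71 ± 2.11, 0.304 ± 0.032 and 4.44 ± 0.217 CPM per kb.

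The change with treatment differed between the species for Gsdma and Gsdmd, by the species by treatment interaction. A negative difference means a lower log2 fold change in spiny mouse. Of the 3 members tested 2 were called, where 46.1% of 13656 shared genes were called, 21.4% higher and 24.7% lower in spiny mouse. Gsdmd differed by 1.95 (SE 0.279, adjusted p = 5.49e-05 in edgeR), having fallen in 4 of 4 treated mouse samples and risen in 4 of 4 treated spiny mouse samples relative to every untreated one. For Gsdma the difference was -2.26 (SE 0.248, adjusted p = 5.42e-06 in edgeR), and for the Gsdma sum it was -1.97 (SE 0.233, adjusted p = 1.08e-05 in edgeR). Both set a whole mouse gene against mainly the 3′ end of the spiny mouse locus, where the 5′ and middle segments moved otherwise. Gsdme fell in both species, and the difference of 0.23 (SE 0.251, adjusted p = 0.471 in edgeR) was below its error, a result that does not show the falls to be equal. The Gsdmc members could not be compared between the species.

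**Figure D3:**
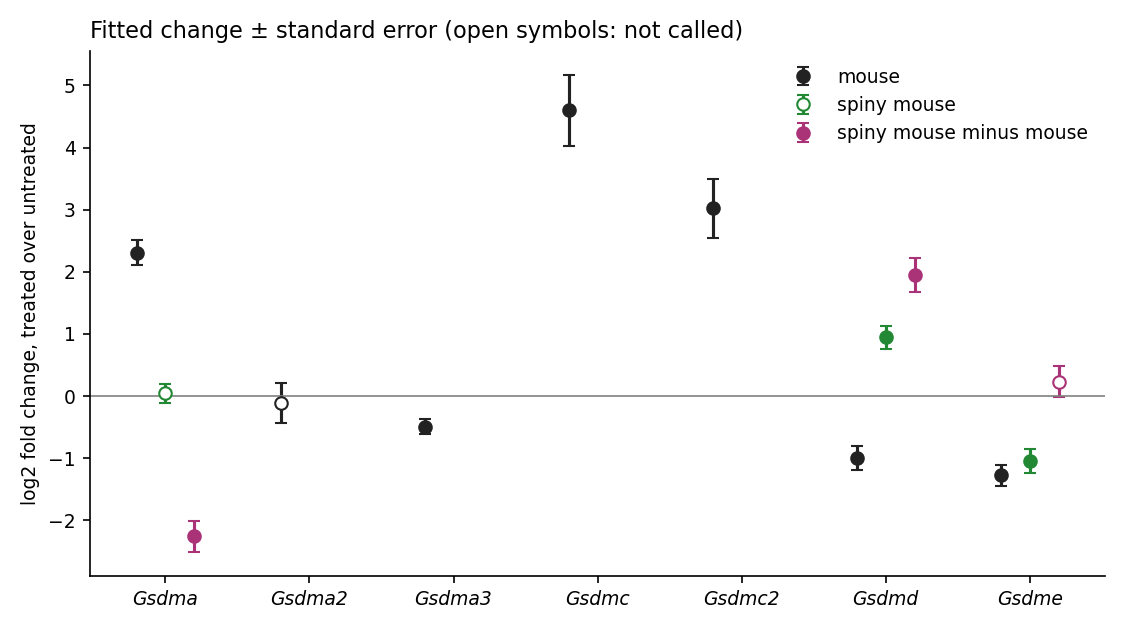
Fitted log2 fold change, treated over untreated, for the tested members in mouse and spiny mouse and for the spiny mouse minus mouse difference, with standard errors as bars and open symbols for values not called. Gsdmd lies at -1.001 in mouse and 0.95 in spiny mouse, Gsdme lies below 0 in both, and Gsdma lies at 2.30 in mouse and 0.05 in spiny mouse.

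Sums of some cell type markers also differed between untreated and treated samples. Over all tested genes 25.9% were called higher and 35.3% lower in mouse, and 28.2% and 26.9% in spiny mouse. In mouse, the inner root sheath sum went from between 9.6 and 2436 CPM to between 21898 and 24401 CPM, with 7 of 7 markers called higher. Basal epidermal markers summed to between 6184 and 9035 CPM untreated and between 14079 and 18793 CPM treated, with 2 of 6 markers called higher and 1 lower. In spiny mouse the basal sum went from between 7768 and 9060 CPM to between 16818 and 21159 CPM, with 5 of 6 markers called higher. Krt14, a keratin of basal cells chosen after its values were seen, changed by 2.16 in mouse and 1.78 in spiny mouse. Its difference between the species was not called (adjusted p = 0.272 in edgeR). Krt1, a suprabasal keratin chosen in the same way, changed by 2.19 in mouse and 0.65 in spiny mouse, while other suprabasal markers were called lower in each species. For Krt1 the difference of -1.55 was called (adjusted p = 0.00184 in edgeR). The mouse suprabasal sum, 5745 to 16996 CPM untreated and 9627 to 14690 CPM treated, overlapped between the groups. Of its 9 markers, 4 were called higher and 3 lower. The spiny mouse suprabasal sum overlapped too, at 9891 to 15104 CPM untreated and 9791 to 15823 CPM treated. Of the 7 markers tested there, 3 were called higher and 2 lower, so neither sum shows its markers to be unchanged. In spiny mouse the inner root sheath sum overlapped between the groups, at 1163 to 11966 CPM untreated and 200.8 to 3490 CPM treated. Hair cortex markers were called higher for 1 of 5 in mouse and lower for 2 of 4 tested in spiny mouse. Their mouse sum still went from between 1.0 and 750.7 CPM to between 4097 and 5067 CPM, without overlap. The spiny mouse hair cortex sum lay between 448.9 and 10546 CPM untreated and between 42.6 and 2020 CPM treated. Of 6 sebaceous gland markers, 2 were called higher and 1 lower in mouse, and 1 of 5 tested was called lower in spiny mouse. The sebaceous sum lay at 2117 to 3440 CPM untreated and 1568 to 2571.5 CPM treated in mouse. In spiny mouse it lay at 1329 to 2337 CPM untreated and 1105 to 1367 CPM treated. The part of these cell types in the rises of Gsdma and Gsdmc was not tested. Untreated replicate 2 had the highest hair sum and the lowest suprabasal sum of its group, and the lowest value of 6 of the 7 tested gasdermins, all but Gsdme.

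Among leukocyte markers, 5 of 7 were called lower in mouse, and their sum went from between 450.3 and 1257 CPM to between 394.4 and 556.8 CPM. In spiny mouse 2 of 6 tested were called higher and 1 lower, and the sum went from between 268.2 and 317.2 CPM to between 359.5 and 522.6 CPM. Ptprc, the common leukocyte antigen CD45, changed by -1.24 (SE 0.15) in mouse and by 1.44 (SE 0.151) in spiny mouse. Neutrophil markers were raised in both species, from between 5.8 and 10.2 CPM to between 18.6 and 28.8 CPM in mouse and from between 5.5 and 9.9 CPM to between 51.7 and 65.8 CPM in spiny mouse. Skeletal muscle markers were lower in both, with 7 of 7 called in mouse and 6 of 6 tested in spiny mouse, as Gsdme was. Their sum went from between 11708 and 18050 CPM to between 2866 and 3840 CPM in mouse. In spiny mouse the muscle sum went from between 17347 and 21590.5 CPM to between 5774 and 11966 CPM. Krt85, Loricrin, Calm4, Lyz2 and Ly6g had no row in the spiny mouse table, and no other listed marker was at 0 in all samples of a species. The part of leukocytes in the Gsdmd changes and of muscle in the Gsdme changes was not tested.

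**Figure D4:**
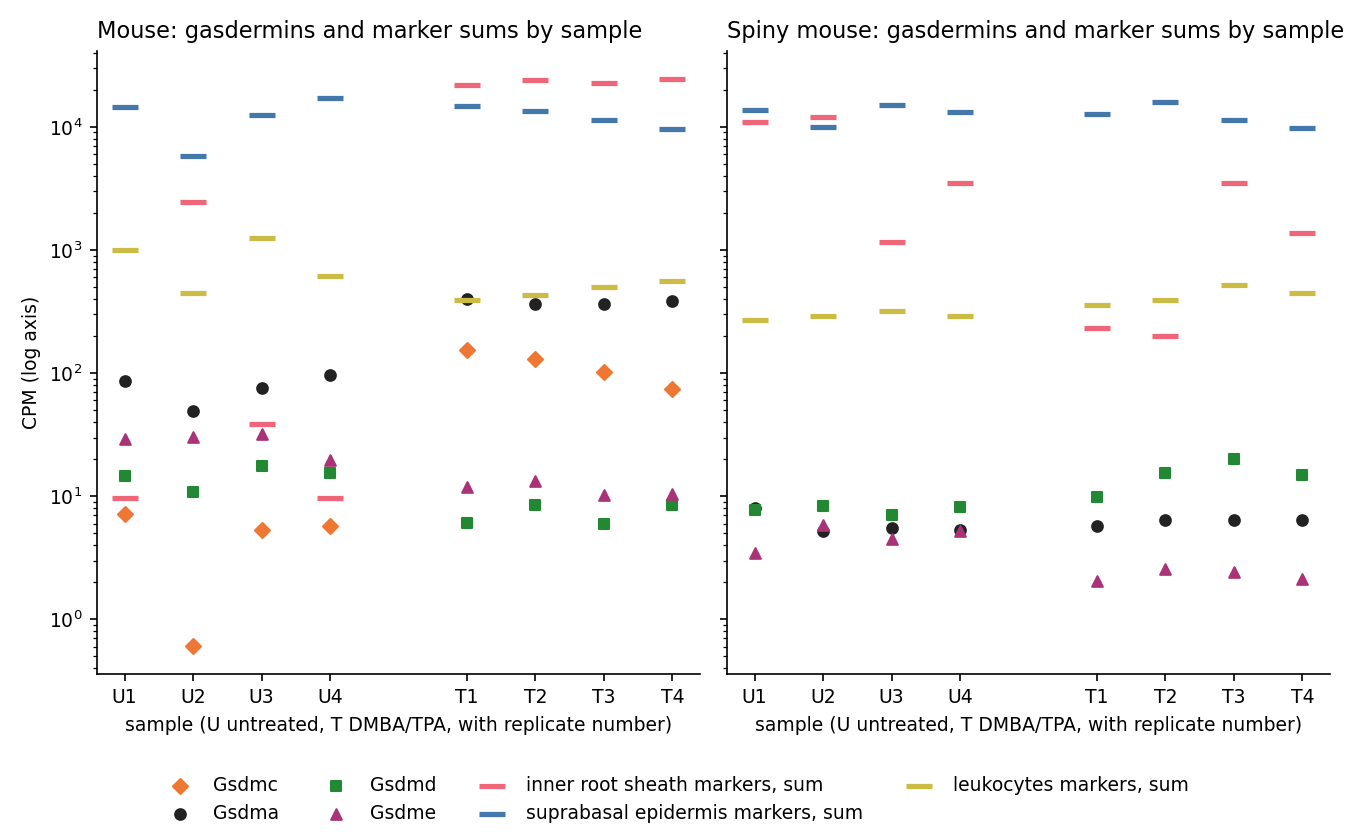
CPM per sample (log axis) of Gsdma, Gsdmd and Gsdme, of Gsdmc in mouse, and of the summed markers of inner root sheath, suprabasal epidermis and leukocytes, in 4 untreated (U) and 4 treated (T) samples of each species. Mouse U2 combines an inner root sheath sum of 2436 CPM with the lowest Gsdma and Gsdmc, and in spiny mouse every treated leukocyte sum lies above every untreated one.

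The genes that act on or beside gasdermins were taken as a list of 40, ordered by role. In mouse 36 were tested, of which 7 were higher and 13 lower (55.6%), a share near the 61.2% of all genes, with a median log2 fold change of 0.005 beside -0.15 over all genes. In spiny mouse 33 were tested, of which 18 were higher and 2 lower (60.6%), beside 55.1% of all genes, with a median of 0.34 beside -0.01. The change differed between the species for 21 of 32, of which 15 were higher in spiny mouse, beside 46.1% of all shared genes. The mouse split moved with scaling: it was 9 higher and 9 lower with DESeq2 size factors and 4 higher and 16 lower with library size alone. The mouse count was 13 without treated replicate 2.

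Sensors start the pathway by assembling inflammasomes. In mouse 7 of 10 tested were called, each of them lower, beside 35.3% of all genes called lower. Nlrp1b, a sensor of protease activity, went from 9.35 ± 4.16 to 2.17 ± 0.492 CPM (SD, n = 4; log2 fold change -2.10, adjusted p = 0.000519 in edgeR). The calls on Nlrp1a, Nlrp10 and Zbp1 were each lost without untreated replicate 1 (adjusted p = 0.0645, 0.0876 and 0.121) or 3, without treated replicate 1 or 2, with no filter and with a replicate block. Without treated replicate 3 those on Nlrp10 and Zbp1 were lost, without treated replicate 4 those on Nlrp1a and Nlrp10, and without untreated replicate 4 those on Nlrp10 and Zbp1, as both were with DESeq2 size factors (adjusted p = 0.0705 and 0.0571). Naip5 and Naip2, receptors for bacterial proteins, changed by -1.21 and -0.82. Aim2, the sensor of cytosolic DNA, changed by -0.63 (adjusted p = 0.01 in edgeR), a call lost without treated replicate 2 (adjusted p = 0.0632) and with no filter (adjusted p = 0.0824). In spiny mouse 5 of 7 tested sensors were called, each of them higher, beside 28.2% of all genes called higher. Leukocyte markers moved the same way as the sensors in mouse and in part in spiny mouse, with Ptprc at -1.24 and 1.44 as given above, and their part in the sensor changes was not tested. Aim2 went from 1.08 ± 0.19 to 10.5 ± 1.01 CPM there (SD, n = 4; log2 fold change 3.27) and Nlrp3, the sensor of membrane damage and ion loss, from 3.59 ± 0.805 to 24.8 ± 4.13 CPM (2.78). The species differences were 3.91 for Aim2 (SE 0.208, adjusted p = 8.93e-09 in edgeR) and 3.41 for Nlrp3 (SE 0.422, adjusted p = 1.56e-05 in edgeR). Naip2 and Naip5 have 2.57% and 1.56% of their spiny mouse exon bases to themselves and were not tested there. Nlrp1a and Nlrp1b had no row of that symbol in the spiny mouse table.

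Of the 4 assembly factors, 1 was called higher and 1 lower in mouse, beside 61.2% of all genes called. None was called in spiny mouse, beside 55.1% of all genes, and 1 had an unadjusted p under 0.05 there (edgeR). Nek7, a kinase that Nlrp3 needs for its assembly, went from 156.1 ± 31.6 to 109.8 ± 5.47 CPM in mouse (SD, n = 4), with overlapping groups and a log2 fold change of -0.51 (SE 0.152, adjusted p = 0.0169 in edgeR). That call was lost with no filter (adjusted p = 0.0973) and without untreated replicate 1 or 3 or treated replicate 2, 3 or 4 (adjusted p between 0.051 and 0.0624). In spiny mouse Nek7 changed by 0.15 (adjusted p = 0.179 in edgeR), and the difference between the species was 0.66 (adjusted p = 0.00795 in edgeR). Pycard, the adaptor ASC that joins sensors to caspase-1, stood at 52.0 ± 12.1 and 59.0 ± 3.8 CPM in untreated and treated mouse skin and at 42.5 ± 4.43 and 50.3 ± 5.17 CPM in spiny mouse (SD, n = 4). Its adjusted p was 0.368 and 0.0676 (edgeR). Dpp9, an inhibitor of the Nlrp1 sensors, rose in mouse by 0.55 (SE 0.107, adjusted p = 0.00201 in edgeR), not called with library size alone (0.30, adjusted p = 0.0506). Its difference between the species, -0.51 (adjusted p = 0.004 in edgeR), was not called with upper-quartile factors (adjusted p = 0.0655) or library size alone (-0.28, adjusted p = 0.116).

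The listed proteases differed between the species in 6 of 8 tested, each higher in spiny mouse. Over all shared genes 46.1% were called, and 21.4% were higher in spiny mouse. Casp4, the mouse caspase-11 gene whose product cuts Gsdmd, held 17.02 to 32.8 CPM untreated and 6.98 to 8.37 CPM treated in mouse, and 11.9 to 13.3 CPM untreated and 24.2 to 32.1 CPM treated in spiny mouse. Groups were apart in both species, in opposite directions, with log2 fold changes of -1.77 (SE 0.203, adjusted p = 0.000114 in edgeR) and 1.20 (SE 0.101, adjusted p = 3.14e-05 in edgeR). Their difference was 2.97 (SE 0.235, adjusted p = 2.57e-07 in edgeR). Casp1, the canonical Gsdmd protease, changed by 0.17 in mouse (adjusted p = 0.549 in edgeR) and by 1.01 in spiny mouse (adjusted p = 0.000165). The species difference of Casp1, 0.84 (adjusted p = 0.0231 in edgeR), was not called with no filter (adjusted p = 0.052) or without mouse untreated replicate 1 or 3, mouse treated replicate 2 or spiny mouse untreated replicate 1 (adjusted p between 0.051 and 0.0641). Casp8, whose product is known to cut GSDMC in human cells, changed by 0.12 in mouse (adjusted p = 0.396 in edgeR) and by 0.86 in spiny mouse (adjusted p = 0.000142). Gzma, a killer cell granzyme, was rare at 1.66 ± 1.17 and 0.305 ± 0.202 CPM in mouse and 1.01 ± 0.6 and 4.999 ± 2.94 CPM in spiny mouse (SD, n = 4), where the groups overlapped. Elane and Ctsg, neutrophil proteases, were too low to test.

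Among the cargo of gasdermin pores, Il1b stood at 6.14 ± 3.54 and 7.35 ± 2.32 CPM in untreated and treated mouse skin, and at 5.31 ± 1.93 and 90.6 ± 18.8 CPM in spiny mouse (SD, n = 4). The mouse groups overlapped and the spiny mouse groups did not, with log2 fold changes of 0.26 (adjusted p = 0.643 in edgeR) and 4.09 (adjusted p = 1.23e-05). The difference was 3.83 (SE 0.56, adjusted p = 6.58e-05 in edgeR). Il18, a cytokine stored by keratinocytes, went from 151.9 ± 28.1 to 62.0 ± 13.6 CPM in spiny mouse (log2 fold change -1.29, adjusted p = 0.000324 in edgeR) and from 27.6 ± 10 to 38.7 ± 6.01 CPM in mouse, where it was not called (adjusted p = 0.15). Without untreated replicate 2, Il18 was called higher in mouse (log2 fold change 0.34, adjusted p = 0.0274 in edgeR). Il1a, an alarm cytokine of keratinocytes, held 3.46 to 14.7 CPM untreated and 21.5 to 25.6 CPM treated in mouse (log2 fold change 1.10, adjusted p = 0.0235 in edgeR, and 0.0517 without treated replicate 1). In spiny mouse its groups overlapped at 12.3 to 18.8 and 10.1 to 15.9 CPM.

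All 4 regulators were called in mouse, 2 higher and 2 lower, and 2 in spiny mouse, 1 each way. Over all genes 61.2% were called in mouse and 55.1% in spiny mouse. Irf1 and Irf2 are transcription factors, and Irf2 is known to drive Gsdmd transcription. Irf2 held 23.5 to 29.7 CPM untreated and 20.5 to 22.2 CPM treated in mouse, and 18.96 to 25.5 and 23.3 to 35.2 CPM in spiny mouse, where the groups overlapped. The mouse change of -0.37 (adjusted p = 0.0113 in edgeR) was not called with DESeq2 size factors (adjusted p = 0.0566), with no filter (adjusted p = 0.176) or without treated replicate 2 (adjusted p = 0.11). The spiny mouse change of 0.34 was not called (adjusted p = 0.0852 in edgeR) but was with a replicate block (adjusted p = 0.0118). The difference of Irf2 between the species was 0.71 (SE 0.189, adjusted p = 0.00614 in edgeR). Irf1 changed by -0.69 in mouse (adjusted p = 0.00454 in edgeR) and 1.01 in spiny mouse (adjusted p = 0.0061). Zdhhc5 and Zdhhc9 encode enzymes that attach palmitate to gasdermin D. Zdhhc5 went from 147.6 ± 18.8 to 380.7 ± 25.6 CPM in mouse (log2 fold change 1.37, adjusted p = 4.76e-05 in edgeR) and from 252.3 ± 21.3 to 285.7 ± 13.2 CPM in spiny mouse (0.18, adjusted p = 0.0718). Zdhhc9 changed by 0.51 in mouse (adjusted p = 0.0099 in edgeR), a call lost with library size alone (0.28, adjusted p = 0.0559), and by -0.89 in spiny mouse (adjusted p = 9.27e-05 in edgeR). Of the genes of membrane rupture and repair, Pdcd6ip and Tsg101 were called higher in both species, by 0.59 and 0.41 in mouse and 0.24 and 0.20 in spiny mouse. Tsg101 lost its mouse call with upper-quartile factors (adjusted p = 0.172), with library size alone (adjusted p = 0.266) and without untreated replicate 1 or treated replicate 1, 3 or 4 (adjusted p between 0.0546 and 0.103). It lost its spiny mouse call without untreated replicate 4 (adjusted p = 0.062) or treated replicate 2 (adjusted p = 0.0542). The species difference of Pdcd6ip, -0.35 (adjusted p = 0.0276 in edgeR), was not called with upper-quartile factors (-0.19, adjusted p = 0.167), with library size alone (-0.13, adjusted p = 0.324), with a replicate block (adjusted p = 0.0525) or without spiny mouse untreated replicate 1 or 4 or treated replicate 2, 3 or 4 (adjusted p between 0.0514 and 0.0577). Ninj1, whose product tears the membrane open after pore formation, changed by 0.04 in mouse (adjusted p = 0.923 in edgeR) and 0.12 in spiny mouse (adjusted p = 0.325). Pjvk, a distant relative of the gasdermins, was too low to test.

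**Figure D5:**
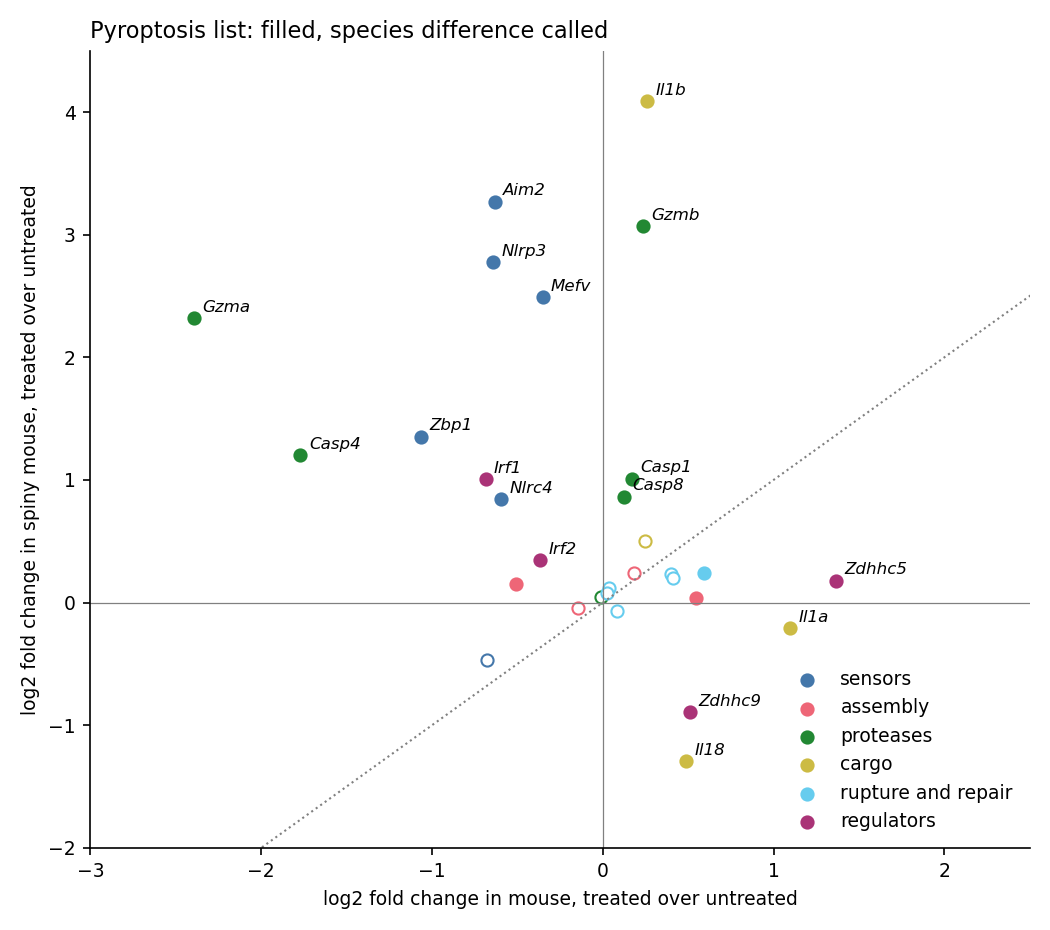
Log2 fold change of list genes tested in both species, mouse on the horizontal and spiny mouse on the vertical axis, coloured by role and filled where the species difference was called, with a dotted line where both changes are equal. The called sensors and proteases lie above the dotted line, with Aim2 at 3.27 and Il1b at 4.09 in spiny mouse, and Zdhhc5, Zdhhc9, Il1a and Il18 lie below it.

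The nearest patterns to each member were found as the smallest mean absolute difference of log2 CPM, centred on each gene's mean, over the 8 samples of a species. This measure takes in the treatment change itself, so it favours genes with a like change, and regulation in common was not tested. In mouse, Tubb2a (0.0818), Sfn (0.0896) and Tgm1 (0.0977) came nearest to Gsdma out of 14803 genes. Their log2 fold changes were 2.20, 2.28 and 2.11, beside 2.305 for Gsdma. Tubb2a is a tubulin gene, Sfn encodes the epithelial protein 14-3-3 sigma, and Tgm1 encodes the transglutaminase that cross-links the cornified envelope. For Gsdmc they were Klk6 (0.327), a secreted protease, Rptn (0.341), a protein of the cornified layer, and Stfa3 (0.341), a stefin. Sparcl1, Kbtbd3 and 2410022M11Rik came nearest to Gsdmd, and Naip5, Zfp711 and Sirt3 to Gsdme. In spiny mouse, out of 13271 genes, Unc93b1 (0.107), which carries nucleic acid-sensing Toll-like receptors to endosomes, Rnf213 (0.111) and Irgm2 (0.113), both known as interferon-induced genes, came nearest to Gsdmd. Those nearest to Gsdme were Cacna1g, Hspa1l and Mgp.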

How the data were processed

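Raw fragment counts per gene were deposited by the authors as 1 table per species. Per the submitters' processing notes, Trim Galore, HISAT2 and featureCounts were used. Per the file headers, featureCounts 2.0.3 counted read pairs with both ends mapped, on GRCm39 with Ensembl 108 for mouse and on AcoCah2 for spiny mouse, with no strand option and no option for fragments that overlap several genes or map to several places. Mouse identifiers were named through GENCODE M39 (56236 named, 744 not). Exon overlaps were computed from the exon coordinates of the deposited tables. Gene length per the file headers was used for levels per kb.

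Each species was fitted on its whole table with the quasi-likelihood test of edgeR 4.0.16 (R 4.3.3), after filterByExpr and TMM scaling, with Benjamini-Hochberg adjustment over all genes and a threshold of 0.05. The species difference is the interaction term, for genes whose symbol occurs a single time in both tables and that pass both filters. The standard error is the log2 fold change over the root of F. The statistics were tested on simulated data. Log2 changes of 1 were recovered for 36.8% of changed genes in mouse, 83% in spiny mouse and 50.5% for the species difference. For changes of 2 these shares were 87.1%, 99% and 93.9%. Few genes were changed in the simulation, in mouse 95 by 1 and 93 by 2 among 19288, while 61.2% were called in the data. The adjusted threshold is stricter where few genes change, so these shares may understate recovery in the data. A gene not called, above all in mouse, may still have changed, and numbers of calls do not compare evenly between the species. Also tried were the size factors and the test of DESeq2 1.42.0, upper-quartile factors, library size alone, no filter, a filter on mean count (10 or more), a replicate block and the removal of each library. The 24 pairs of replicates differed by a chi-square of 11.4 or more per degree of freedom, so all 16 samples were kept.

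The members and lists were chosen with earlier results of these data known. Named were the 9 members, the 40 list genes, the cell type markers, and for the most abundant tested member of each subfamily the 3 genes nearest in pattern, among genes averaging 1 or more in log2 CPM. Some of these genes enter the counts and are not reported here by name. Protein sequences were not used here.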

Additional observations from a re-analysis of the deposited data

Results flagged for a closer look

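Treatment effects that differed between the species by the interaction test (edgeR, adjusted p under 0.05) were found for 2 members, -2.259 for Gsdma and 1.946 for Gsdmd as spiny mouse minus mouse log2 fold change, and for the Gsdma subfamily sum at -1.969. Among the sensors these differences were 3.411 for Nlrp3, 1.441 for Nlrc4, 3.905 for Aim2, 2.846 for Mefv and 2.42 for Zbp1. Those of assembly factors were 0.659 for Nek7 and -0.513 for Dpp9. For the proteases they were 0.841 for Casp1, 2.971 for Casp4, 0.741 for Casp8, 4.71 for Gzma and 2.843 for Gzmb. The remaining ones were -1.305 for Il1a, 3.827 for Il1b, -1.778 for Il18, -0.352 for Pdcd6ip, 1.694 for Irf1, 0.713 for Irf2, -1.188 for Zdhhc5 and -1.404 for Zdhhc9. Among these, the calls on Casp1, Dpp9 and Pdcd6ip were lost under some alternatives, those on Dpp9 and Pdcd6ip with upper-quartile factors (adjusted p = 0.0655 and 0.167) and library size alone (adjusted p = 0.116 and 0.324), and that on Casp1 with no filter (adjusted p = 0.052). Gzmb has 39.4% of its spiny mouse exon bases to itself, and 1.127 CPM at most as a group mean in either species.

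Single samples lay far from the other 3 of their group in 10 of 124 groups examined, where chance gives about 1 in 20. Among members this was Gsdma in spiny mouse, in untreated replicate 1 (8.063 CPM, the others 5.20 to 5.51) and treated replicate 1 (5.777 CPM, the others 6.37 to 6.40). In mouse, untreated replicate 2 was low for Chmp4b (73.28 CPM, the others 137.9 to 143.5) and Tsg101 (47.1 CPM, the others 73.2 to 75.7). Treated mouse samples apart were replicate 1 for Aim2 (3.623 CPM), replicate 2 for Casp1 (26.29 CPM) and replicate 4 for Il18 (29.74 CPM). In untreated spiny mouse skin the sample apart was replicate 2 for Chmp4b (164.8 CPM), Gzma (1.904 CPM) and Hmgb1 (311.4 CPM).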

How the results depend on the processing

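The members called numbered 6 in mouse, 2 in spiny mouse and 2 for the species difference under every alternative but 1. With no low-count filter they were 6, 4 and 5, as rows of few counts entered, and Gsdma3 lost its call in mouse. Reversals of sign touched only values that were not called: Gsdma2 in mouse was 0.033 with no filter and lay between -0.248 and 0.04 when 1 library was left out (above 0 without untreated replicate 1 or 4 or treated replicate 1 or 2), and Gsdma in spiny mouse lay between -0.019 and 0.212 (below 0 without untreated replicate 2 or 4). Among list genes, Casp1 and Casp8 in mouse were -0.019 and -0.076 with upper-quartile factors and -0.055 and -0.110 with library size alone. Dpp9 in spiny mouse was -0.003 with upper-quartile factors and between -0.011 (without treated replicate 4) and 0.085 when 1 library was left out, and with library size alone the species differences of Chmp4b and Tsg101 were 0.044 and 0.004. Leaving out 1 library put the list count of mouse between 13 (without treated replicate 2) and 25 (without untreated replicate 2), that of spiny mouse between 19 and 22 and that of the species difference between 19 and 21. Over all alternatives 1235 of 1332 values kept direction and call, for the 28 list genes reported by name and called in at least 1 main comparison. List genes called in none were left out of this count. Replicate numbers recur in all groups, but same-numbered samples did not deviate together (mean correlation 0.00943 in mouse and -0.355 in spiny mouse, and no sample was nearest its own number). A replicate block left the member counts at 6, 2 and 2 and gave list counts of 17, 21 and 20. Counts limit Gsdmc3 and Gsdmc4 in mouse, and shared exons limit the Gsdma and Gsdmc rows in spiny mouse.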
